A study of Mus musculus with 2 samples.

Results

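The cells described here are neutrophils that carried transcripts of the chemokine receptor Cxcr2 or the interleukin-1 decoy receptor Il1r2 at no lower a level than those of the chemokine Ccl3, and they numbered 825 of the 15360 cell barcodes in the series. They were chosen on counts of unique molecular identifiers (UMIs, which tag single captured RNA molecules). A neutrophil had at least 1000 UMIs, under 20% mitochondrial UMIs, S100a8 and S100a9 at 0.5% or more of its UMIs together, at least 1 UMI of Csf3r, at most 1 of Csf1r, 0 of Cd3e, Col1a2 under 0.1% and the granule genes Camp, Ngp and Ltf together under 0.5%. Of these 1449 neutrophils, the 825 Cxcr2 Il1r2 neutrophils had at least 1 UMI of Cxcr2 or Il1r2 and a receptor sum no lower than Ccl3. The remaining 624 are called the other neutrophils below.

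The cells came from acellular scaffolds placed in a circular skull defect of 3.5 mm in female Balb/c mice aged 6 weeks. At week 1 the scaffolds of 5 mice were pooled for each of the groups, Gel50_CS50 and Gel100, which name scaffold materials that the labels do not spell out. Cells were released by enzyme digestion, and viable ones were sorted and profiled by droplet sequencing on the 10x Chromium platform, 1 library per group. Gel50_CS50 held 544 of the Cxcr2 Il1r2 neutrophils and 509 of the other neutrophils, and Gel100 held 281 and 115. With 1 library per group there is no replicate, so no test between groups was run, and every interval below is a 95% interval that covers counting error only. Differences between libraries of pooled mice cannot be told apart from differences between scaffolds.

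Neutrophils are short-lived granulocytes made in the bone marrow, and mature ones leave it for the blood with Cxcr2 on their surface. Cxcr2 binds chemokines such as Cxcl1, Cxcl2 and Cxcl3 and guides the cells to a wound, whereas Il1r2 binds interleukin-1 without passing on a signal. In inflamed tissue, neutrophils are known to make chemokines and cytokines of their own, and interferons switch on a broad antiviral gene program in them.

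The label was checked against marker genes, of which those used for the choice are given only as a description. Levels are sums of a gene's UMIs over the chosen cells of each library, given out of 1000000 UMIs of those cells (counts per 1000000, CPM). Cxcr2 stood at 1431 CPM in Gel50_CS50 and 1180 CPM in Gel100. Il1r2 stood at 2911 CPM in Gel50_CS50 and 2577 CPM in Gel100. Both receptors were seen together in 512 of 544 cells of Gel50_CS50 (94.1%) and in 250 of 281 cells of Gel100 (89.0%). Il1r2 without Cxcr2 was seen in 16 cells of Gel50_CS50 and 23 of Gel100, and Cxcr2 without Il1r2 in 16 and 8. The remaining markers of the label were present too. Lrg1, which encodes a secreted glycoprotein of neutrophil granules, stood at 903 CPM in Gel50_CS50 and 291 CPM in Gel100. G0s2, an inhibitor of the triglyceride lipase that opens fat stores, stood at 1812 CPM in Gel50_CS50 and 1918 CPM in Gel100. It did not set these cells apart from the other neutrophils, where its level lay within 1.5-fold in both libraries. Ly6g, the surface marker most used to sort mouse neutrophils, had a UMI in only 7.54% of the cells of Gel50_CS50 and 12.1% of those of Gel100.

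Free RNA in the droplets was gauged in T cells of the same libraries, 218 in Gel50_CS50 and 357 in Gel100. The 12 mature neutrophil markers summed to 77857 CPM in the Cxcr2 Il1r2 neutrophils and 111 CPM in T cells of Gel50_CS50, and to 72003 CPM and 81.9 CPM in Gel100. Most of that sum came from S100a8 and S100a9, which with Csf3r were used to choose both the neutrophils and the T cells, so the choice itself set these sums apart. Of the markers not used for either choice, G0s2 stood at 1812 CPM in the Cxcr2 Il1r2 neutrophils and 3.23 CPM in T cells of Gel50_CS50, and at 1918 CPM and 2.61 CPM in Gel100. Trem1, a receptor that amplifies inflammatory signals in myeloid cells, stood at 1257 CPM in the Cxcr2 Il1r2 neutrophils and 3.23 CPM in T cells of Gel50_CS50, and at 1148 CPM and 1.16 CPM in Gel100. Epx and Prg2, the granule genes that define eosinophils, had 0 UMIs in the Cxcr2 Il1r2 neutrophils of either library, where 3 UMIs would be 1.16 CPM in Gel50_CS50 and 2.35 CPM in Gel100. Ccr3 and Siglecf, the remaining eosinophil markers, had 11 UMIs each in Gel50_CS50, and 9 and 13 in Gel100. A UMI of any eosinophil marker was seen in 3.49% of the cells of Gel50_CS50 and 6.41% of those of Gel100. In T cells the shares were 3.21% and 2.52%. Mcpt8, Ms4a2 and Fcer1a of mast cells and basophils were at 0 as well. Of the same group, Kit had 2 UMIs in Gel50_CS50 and 7 in Gel100, and Cpa3 had 1 and 0. The 3 B cell markers had 0 UMIs in Gel50_CS50 and 1 in Gel100. The 11 macrophage and monocyte markers summed to 1153 CPM in Gel50_CS50 and 1341 CPM in Gel100, beside 1015 CPM and 1255 CPM in the T cells. Csf1r among them was limited by both choices, and Ly6c2 made up 757 of the 1711 UMIs in Gel100. Whether T cells make some of these markers themselves was not tested, so the sums do not gauge free RNA. A Gel50_CS50 cell of 15704 UMIs held 292 of the 1449 UMIs of Apoe, a marker on this list. A few cells carried dendritic cell transcripts: a Gel100 cell of 31716 UMIs held 206 of the 207 UMIs of Ccl22 and 95.8% of those of Ccr7, both markers of migratory dendritic cells. Genes with a large part of their UMIs in such cells are marked as such below. Smaller parts are not marked for every gene.

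The Cxcr2 Il1r2 neutrophils had a median of 4310 UMIs and 1281 genes per cell in Gel50_CS50, and 4060 UMIs and 1223 genes in Gel100. The median over all cells was 16954 UMIs in Gel50_CS50 and 14206 UMIs in Gel100, and 9831.5 and 8636 UMIs in the T cells. The UMIs of the Cxcr2 Il1r2 neutrophils summed to 2584657 in Gel50_CS50 and 1276085 in Gel100. The libraries shared 24 barcode sequences, of which 1 lay among the Cxcr2 Il1r2 neutrophils of Gel50_CS50 and 0 among those of Gel100.

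How frequent these cells were was read against the gated neutrophils and against all cells of at least 1000 UMIs. They made up 51.7% of the gated neutrophils in Gel50_CS50 (48.6% to 54.7%, 544 of 1053 cells) and 71.0% in Gel100 (66.2% to 75.4%, 281 of 396 cells), a difference of -19.3 percentage points (-24.5 to -13.8). Of all cells, they made up 7.46% in Gel50_CS50 (6.87% to 8.09%) and 4.07% in Gel100 (3.62% to 4.57%), a difference of 3.39 points (2.62 to 4.15). The other neutrophils made up 6.98% of all cells in Gel50_CS50 and 1.67% in Gel100, a difference of 5.31 points (4.66 to 5.98). Thus both kinds of neutrophil took a larger share of the Gel50_CS50 library, and the Cxcr2 Il1r2 kind was the smaller fraction of the neutrophils there. With every cell thinned to 1000 UMIs and the rule applied again, they made up 56.6% of the gated neutrophils in Gel50_CS50 and 75.9% in Gel100. The sort for viable cells acted on both libraries, and its part in these shares was not tested.

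**Figure D1:**
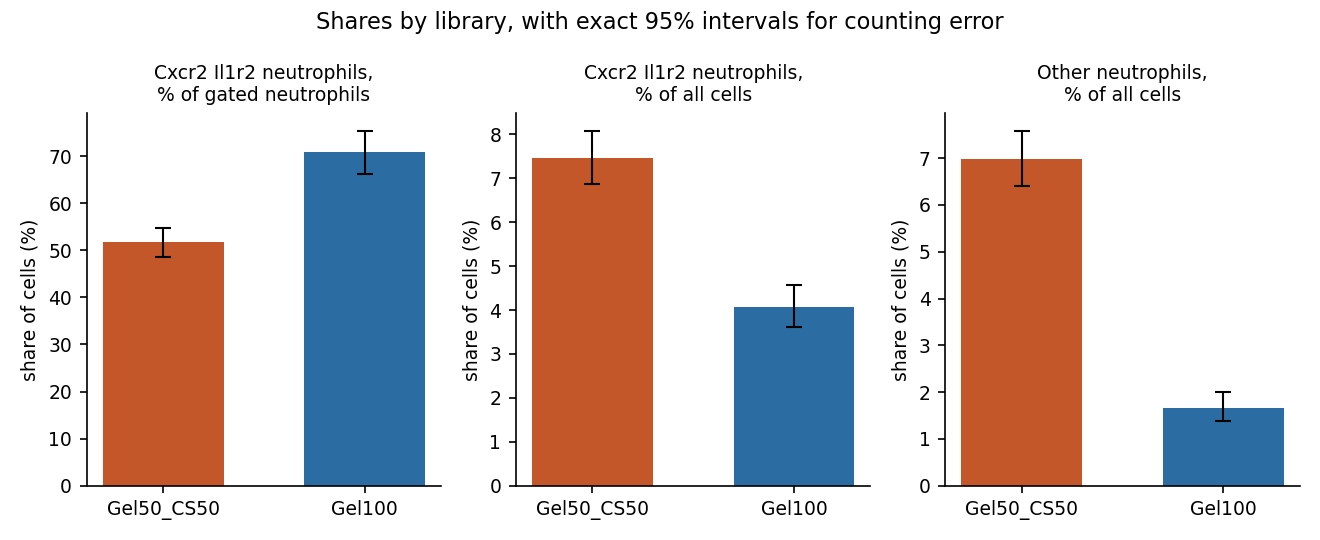
Share of cells in percent (each vertical axis starts at 0) for Gel50_CS50 and Gel100, as a fraction of gated neutrophils and of all cells, with exact 95% counting intervals as bars and 1 library per group. The Cxcr2 Il1r2 neutrophils were 51.7% of neutrophils in Gel50_CS50 and 71.0% in Gel100, but 7.46% and 4.07% of all cells.

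The cells that failed the choice did so mostly through Ccl3. Ccl3, a chemokine that calls monocytes and other cells, exceeded the receptor sum in 40.7% of the neutrophils of Gel50_CS50 and 26.0% of those of Gel100. A further 7.60% in Gel50_CS50 and 3.03% in Gel100 had no UMI of either receptor. Among the Cxcr2 Il1r2 neutrophils, 48.7% in Gel50_CS50 and 52.3% in Gel100 had no Ccl3 UMI at all. The receptor sum had a median of 17 UMIs per cell in Gel50_CS50 (10th to 90th percentile 6 to 42) and 13 in Gel100 (5 to 35). Near the boundary, 69 cells of Gel50_CS50 and 37 of Gel100 lay just inside, with a receptor sum of 1 to under 2 times Ccl3. Just outside, 79 cells of Gel50_CS50 and 28 of Gel100 had a receptor sum below Ccl3 by less than that factor. The boundary therefore cut through a continuous range of cells.

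**Figure D2:**
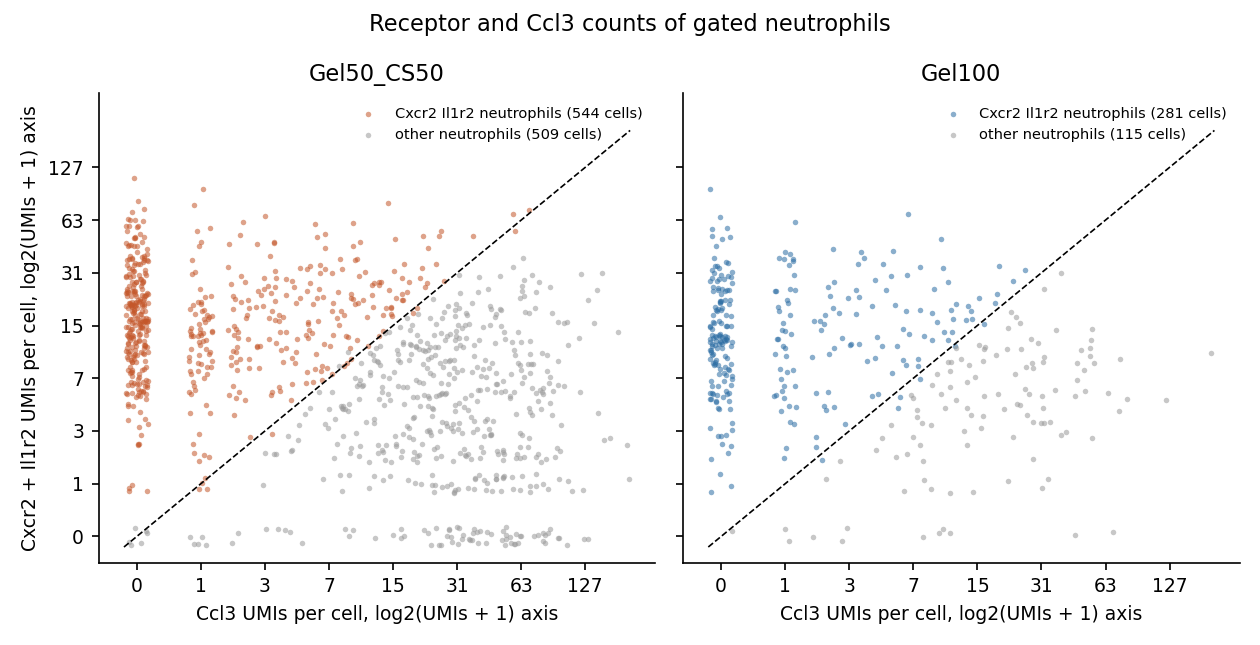
Each point is a gated neutrophil, with its Ccl3 UMIs on the horizontal and its Cxcr2 plus Il1r2 UMIs on the vertical axis, both on a log2(UMIs + 1) scale with a small random shift. Coloured points at or above the dashed line of equality are the 544 Cxcr2 Il1r2 neutrophils of Gel50_CS50 and the 281 of Gel100, of which 48.7% and 52.3% stand at 0 Ccl3.

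Between the libraries, most genes stood at similar levels in the Cxcr2 Il1r2 neutrophils of Gel50_CS50 and Gel100. Genes that reached 50 CPM on average over the libraries count as measured, and there were 2490. Their median log2 ratio of Gel50_CS50 over Gel100 was -0.01, with 95% of the ratios from -0.92 to 0.69. Past 1.5-fold, 109 genes (4.38%) were higher in Gel50_CS50 and 174 (6.99%) were lower. Scaled by edgeR's TMM factors, the split was 158 higher and 123 lower. The whole counting interval lay beyond 1.5-fold for 34 higher and 80 lower genes. In the other neutrophils 36.5% of 2295 genes were past 1.5-fold, beside 11.4% here, but the Gel100 sum of the other neutrophils rested on 485957 UMIs and has the wider counting error.

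Of the gene lists examined, the interferon-stimulated one held the most lower genes. All 31 measured genes of the 37 on it had a ratio below 0, with a median of -0.84, and 24 were past 1.5-fold lower and 0 higher. Over all measured genes 6.99% were past 1.5-fold lower. Cxcl10, the ligand of Cxcr3 on activated T and NK cells, stood at 1426 CPM in Gel50_CS50 and 4616 CPM in Gel100 (log2 ratio -1.69, -1.75 to -1.63). A Cxcl10 UMI was seen in 34.6% of the cells of Gel50_CS50 and 55.5% of those of Gel100, and in 24.1% and 46.6% of cells thinned to 1000 UMIs. Irgm1, an immunity-related GTPase of defence against intracellular microbes, stood at 136 CPM in Gel50_CS50 and 380 CPM in Gel100 (log2 ratio -1.48, -1.68 to -1.28). Ifit3, an antiviral tetratricopeptide protein, stood at 306 CPM in Gel50_CS50 and 772 CPM in Gel100 (log2 ratio -1.33, -1.47 to -1.20). The 3 genes were lower in Gel50_CS50 by more than their counting error.

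Their promoters are shown because the interferon-stimulated response element can be read in them. Capitals mark each match to the element, searched as GAAA, any 2 bases and GAAA again (TTTC in place of GAAA on the opposite strand), in the 250 bases before the gene start (RefSeq, GRCm38.p6). They lie at chr5:92348890-92349139 on the minus strand for Cxcl10, at chr11:48871421-48871670 on the minus strand for Irgm1 and at chr19:34583279-34583528 on the plus strand for Ifit3. The capitals of Irgm1 join 2 overlapping matches.
Cxcl10: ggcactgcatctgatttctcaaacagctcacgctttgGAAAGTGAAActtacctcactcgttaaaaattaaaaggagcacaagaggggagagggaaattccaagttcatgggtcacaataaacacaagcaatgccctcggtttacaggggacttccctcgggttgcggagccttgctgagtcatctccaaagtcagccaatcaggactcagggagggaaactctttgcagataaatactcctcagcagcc
Irgm1: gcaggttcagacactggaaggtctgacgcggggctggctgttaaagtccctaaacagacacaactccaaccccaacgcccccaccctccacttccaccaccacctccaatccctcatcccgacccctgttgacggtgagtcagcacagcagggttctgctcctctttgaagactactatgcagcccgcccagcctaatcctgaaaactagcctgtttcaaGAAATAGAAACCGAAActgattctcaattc
Ifit3: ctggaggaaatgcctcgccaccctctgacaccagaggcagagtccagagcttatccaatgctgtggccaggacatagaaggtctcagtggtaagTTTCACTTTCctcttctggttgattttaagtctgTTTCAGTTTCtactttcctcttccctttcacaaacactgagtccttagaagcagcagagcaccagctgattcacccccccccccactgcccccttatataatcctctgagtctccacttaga
Of the measured interferon-stimulated genes, 27 had a promoter in the table, and 14 of these (51.9%) held the motif. It was held by 103 of 1975 promoters of measured genes (5.22%) and by 936 of all 27025 (3.46%). Among the 12 genes named for the lowest ratios below, 11 had a promoter and 2 held it, Cxcl10 and Irgm1, while 0 of 10 promoters of the 12 named for the highest ratios did. The STAT motif, TTCC and GGAA with any base between them, searched on both strands in the same windows, was in 2 of the 27 interferon-stimulated promoters and in 1.09% of all.

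The rest of the interferon group stood lower too, by different amounts. Rsad2 (viperin, an antiviral enzyme) stood at 3292 CPM in Gel50_CS50 and 6500 CPM in Gel100. Ifit1 stood at 1108 CPM in Gel50_CS50 and 2215 CPM in Gel100, and Ifit2 at 363 CPM and 805 CPM. Isg15, a ubiquitin-like protein, stood at 2849 CPM in Gel50_CS50 and 4539 CPM in Gel100. Log2 ratios were -0.98 for Rsad2, -1.15 for Ifit2 and -0.67 for Isg15. Usp18, which removes Isg15 from proteins, had a log2 ratio of -1.15, and Cmpk2, a nucleotide kinase beside Rsad2, one of -1.09. Among factors that drive the program, Irf7 had a log2 ratio of -0.82, Stat2 of -0.64 and Irf1 of -0.60. Gbp5, a guanylate-binding protein of inflammasome activation, stood at 1194 CPM in Gel50_CS50 and 2400 CPM in Gel100 (log2 ratio -1.01). Bst2 (log2 ratio -0.39), Ifitm3 (-0.42) and Slfn4 (-0.22) were lower by less than 1.5-fold.

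Per cell, the interferon-stimulated list took a median of 2.14% of UMIs in Gel50_CS50 (10th to 90th percentile 0.497% to 6.10%) and 4.50% in Gel100 (0.468% to 9.82%). The cells of the libraries overlapped almost throughout this range. The other neutrophils had medians of 2.07% in Gel50_CS50 and 5.26% in Gel100, and 27 of 31 measured genes of the list were past 1.5-fold lower there, with a median log2 ratio of -1.16. Over all genes measured in the other neutrophils, 20.1% were past 1.5-fold lower. T cells, which express these genes themselves, had an Ifit3 UMI in 22.5% of cells in Gel50_CS50 and 47.1% in Gel100.

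Antigen presentation genes followed the same direction. All 12 measured genes of the 13 on the MHC class I and II list had a ratio below 0 (median -0.70), and 8 were past 1.5-fold lower, beside 6.99% of all measured genes. B2m, the light chain of MHC class I, stood at 2087 CPM in Gel50_CS50 and 3323 CPM in Gel100 (log2 ratio -0.67, -0.73 to -0.61). Tap1 and Tap2 carry peptides into the endoplasmic reticulum. Tap1 stood at 94.4 CPM in Gel50_CS50 and 194 CPM in Gel100, and Tap2 at 49.9 CPM and 99.5 CPM. Psmb8 (-0.72) and Psmb9 (-0.87) of the immunoproteasome and Nlrc5 (-1.17), the activator of class I genes, were lower too. The measured class II genes rested on few cells, and H2-Aa and Cd74 were among the 8. A single cell held 62.8% of the H2-Aa UMIs in Gel100 and 33.3% in Gel50_CS50, and 46.7% and 28.6% of those of Cd74. For H2-Eb1 a single cell held 56.1% in Gel100 and 23.4% in Gel50_CS50, and for H2-Ab1 45.6% and 36.8%. Whether the class II ratios stay below 0 without such cells was not tested.

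The genes named for the lowest ratios held several more beside Cxcl10 and Irgm1. Clic4, an intracellular chloride channel protein, stood at 185 CPM in Gel50_CS50 and 622 CPM in Gel100 (log2 ratio -1.75, -1.92 to -1.59). In the cells with 3 or more Retnlg UMIs described below, the Clic4 ratio was 0.90. Of the Clic4 UMIs in Gel100, 14.2% lay in the cell of 31716 UMIs. Znfx1, a sensor of viral RNA, stood at 100 CPM in Gel50_CS50 and 288 CPM in Gel100 (log2 ratio -1.52). Nt5c3, a pyrimidine nucleotidase, stood at 45.7 CPM in Gel50_CS50 and 128 CPM in Gel100 (log2 ratio -1.48). Ly6c1 (log2 ratio -1.80) and Ly6c2 (-1.57) encode near-identical surface proteins, and Trim30c (-1.61) has close relatives as well, so reads may have been split among copies. Ly6c2 stood at 200 CPM in Gel50_CS50 and 593 CPM in Gel100. Olfr56 (-1.77) overlaps Ifi47, an interferon-inducible GTPase, on the same strand, so its count is uncertain. Ccl22 (-7.71) and Tmem123 (-1.69) rested on the Gel100 cell of 31716 UMIs, which held 99.5% and 61.9% of their UMIs there.

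Lrg1 was among the genes higher in Gel50_CS50. Lrg1 stood at 903 CPM in Gel50_CS50 and 291 CPM in Gel100, a log2 ratio of 1.64 (1.48 to 1.80). A Lrg1 UMI was seen in 80.0% of the cells of Gel50_CS50 and 43.4% of those of Gel100, and in 50.2% and 19.9% after thinning to 1000 UMIs. In T cells the share with a Lrg1 UMI was 0.917% in Gel50_CS50 and 1.40% in Gel100, at median depths of 9831.5 and 8636 UMIs. In the other neutrophils Lrg1 stood at 259 CPM in Gel50_CS50 and 167 CPM in Gel100 (log2 ratio 0.64, 0.30 to 0.99).

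Further genes were higher in Gel50_CS50. Entpd3, an enzyme that breaks down extracellular nucleotides, stood at 97.5 CPM in Gel50_CS50 and 24.3 CPM in Gel100 (log2 ratio 2.00, 1.46 to 2.59). Wfdc17, a small secreted protein with a whey acidic protein fold, stood at 611 CPM in Gel50_CS50 and 217 CPM in Gel100 (log2 ratio 1.49, 1.31 to 1.68). Cxcl3, itself a Cxcr2 ligand, stood at 221 CPM in Gel50_CS50 and 92.5 CPM in Gel100 (log2 ratio 1.26, 0.97 to 1.56). Eif4ebp1, a repressor of translation start, had a log2 ratio of 1.27, and Ppp1r3d, a subunit that brings protein phosphatase to glycogen, one of 1.30. F10 (1.58), Slc16a10 (1.35) and Simc1 (1.23) rested on few cells, with 40.0% of the F10 UMIs in 1 cell of Gel100, and 30.7% of those of Slc16a10 and 30.5% of those of Simc1 in 1 cell of Gel50_CS50.

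The collagen genes Col3a1 (log2 ratio 2.06) and Col1a1 (2.05) led the higher genes, and Col1a2 (1.61), which the gate limits, was among them. The 4 stromal markers summed to 324 CPM in the Cxcr2 Il1r2 neutrophils of Gel50_CS50 and 86.2 CPM in those of Gel100, and to 185 CPM and 73.2 CPM in the T cells. A stromal UMI was seen in 75.7% of the Cxcr2 Il1r2 neutrophils of Gel50_CS50 and 28.5% of those of Gel100, and in 83.0% and 38.4% of T cells. Col3a1 had a UMI in 43.9% of the Cxcr2 Il1r2 neutrophils of Gel50_CS50 and 11.4% of those of Gel100, beside 53.2% and 18.2% of T cells, which do not make it. Thinned to 1000 UMIs, Col3a1 had a UMI in 11.8% of the neutrophils of Gel50_CS50 and 3.20% of those of Gel100, and in 7.34% and 4.20% of T cells. No collagen expression by the neutrophils is read from these values.

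**Figure D3:**
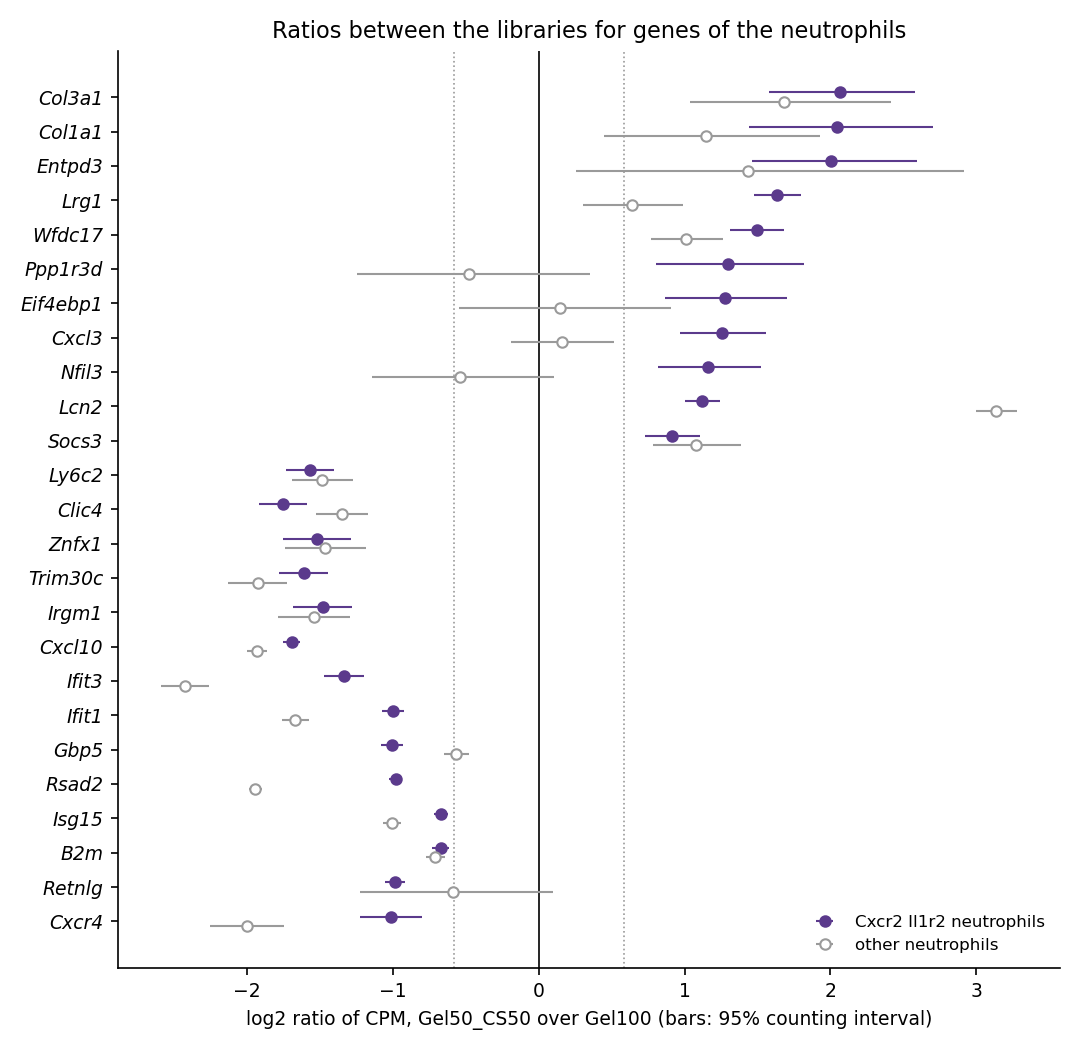
Log2 ratio of CPM, Gel50_CS50 over Gel100, for 25 genes in the Cxcr2 Il1r2 neutrophils (filled) and the other neutrophils (open), with 95% counting intervals and dotted lines at 1.5-fold. Lrg1 stands at 1.64 in the Cxcr2 Il1r2 neutrophils and 0.64 in the others, and Cxcl10 at -1.69 and -1.93.

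The remaining lists are given by role, and their counts stand beside 4.38% of all measured genes past 1.5-fold higher in Gel50_CS50 and 6.99% lower. Of 23 measured mature neutrophil genes, Lrg1 and Lcn2 were past 1.5-fold higher in Gel50_CS50 and Retnlg, Mmp8 and Ly6g lower. Lcn2, a lipocalin that withholds iron from bacteria, stood at 1170 CPM in Gel50_CS50 and 538 CPM in Gel100 (log2 ratio 1.12, 1.00 to 1.24). Retnlg, a resistin-like secreted protein of blood and marrow neutrophils, stood at 1251 CPM in Gel50_CS50 and 2477 CPM in Gel100 (log2 ratio -0.99, -1.06 to -0.91). Mmp8, the neutrophil collagenase, stood at 156 CPM in Gel50_CS50 and 234 CPM in Gel100 (log2 ratio -0.59, -0.81 to -0.37).

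Of 16 measured cytokines and chemokines, 4 were past 1.5-fold higher in Gel50_CS50 and 3 lower, beside 4.38% and 6.99% of all measured genes. The higher ones were Cxcl3, Cxcl1 (log2 ratio 0.86), Il23a (0.68), a subunit of interleukin-23, and Osm (0.61), a cytokine of the interleukin-6 family. The lower ones were Cxcl10, Ccl6 (-0.59) and Ccl9 (-0.60). Of the Ccl9 UMIs in Gel100, 21.6% lay in the cell of 31716 UMIs. Il1b, which encodes interleukin-1 beta, stood at 16793 CPM in Gel50_CS50 and 15429 CPM in Gel100 (log2 ratio 0.12). Cxcl2 stood at 16229 CPM in Gel50_CS50 and 12649 CPM in Gel100 (log2 ratio 0.36), and Tnf at 1868 CPM and 1846 CPM (0.02).

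Among 8 measured chemoattractant receptors, Ltb4r1, the leukotriene B4 receptor, was past 1.5-fold higher (log2 ratio 0.64) and Cxcr4, which holds neutrophils in the marrow, past 1.5-fold lower. Cxcr4 stood at 141 CPM in Gel50_CS50 and 285 CPM in Gel100 (log2 ratio -1.01, -1.23 to -0.80). Of 9 measured interleukin-1 family genes, Il18 was lower (log2 ratio -0.89), and Nlrp3 (0.31) and Il1rn (-0.24) lay within 1.5-fold. Of 14 measured NF-kB brakes and feedback genes, only Socs3, which dampens signals of the G-CSF receptor, was past 1.5-fold. Socs3 stood at 428 CPM in Gel50_CS50 and 226 CPM in Gel100 (log2 ratio 0.92, 0.73 to 1.11). Of 20 measured pattern recognition genes, only Irak3, a brake on Toll-like receptors, was past 1.5-fold (log2 ratio 0.80). Both counts stand beside 11.4% of all measured genes. Nfil3, a transcription factor, stood at 144 CPM in Gel50_CS50 and 64.3 CPM in Gel100 (log2 ratio 1.16), and was the only one of 27 measured transcription factors past 1.5-fold, beside 11.4% of all measured genes past it either way. Of 12 survival and apoptosis genes, Gadd45a (0.78) was past 1.5-fold higher and Bcl2a1d (-0.67) and Pmaip1 (-0.89) lower, beside 4.38% and 6.99% of all measured genes. Of the Bcl2a1d UMIs in Gel100, 9.62% lay in the cell of 31716 UMIs. Cd274, which encodes PD-L1, stood at 864 CPM in Gel50_CS50 and 1577 CPM in Gel100 (log2 ratio -0.87). Of 11 measured adhesion, 7 NADPH oxidase, 9 heat shock and 4 prostaglandin genes, 0 were past 1.5-fold either way. At 11.4% of all measured genes, lists this short can hold 0 such genes.

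Set against the other neutrophils of the same library, the Cxcr2 Il1r2 neutrophils are described here without support for the label, since the choice was made on these cells. Past 1.5-fold in both libraries alike, 260 of 2212 measured genes (11.8%) were higher and 124 (5.61%) lower. With TMM scaling these were 193 higher and 168 lower. Retnlg and Mmp8 led the higher genes. Retnlg stood at 1251 CPM in the Cxcr2 Il1r2 neutrophils and 35.6 CPM in the others of Gel50_CS50, and at 2477 CPM and 53.5 CPM in Gel100. Mmp8 stood at 156 CPM in the Cxcr2 Il1r2 neutrophils and 17.1 CPM in the others of Gel50_CS50, and at 234 CPM and 10.3 CPM in Gel100.

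Other named genes with high ratios in both libraries had varied functions. Arhgap15, which switches off the GTPase Rac, had log2 ratios of 2.10 in Gel50_CS50 and 2.04 in Gel100, with 1100 CPM and 1385 CPM in the Cxcr2 Il1r2 neutrophils. Mtus1, a microtubule-associated protein, had log2 ratios of 3.11 and 2.69, and Rab44, a large Rab GTPase, 2.27 and 1.99. Alox5, the lipoxygenase that starts leukotriene synthesis, stood at 95.6 CPM in the Cxcr2 Il1r2 neutrophils and 28.0 CPM in the others of Gel50_CS50, and at 98.0 CPM and 18.5 CPM in Gel100. Its partner Alox5ap had log2 ratios of 1.00 and 1.08. The named genes also held Dhrs7 (2.00 and 1.92), Ankrd13c (1.87 and 1.96), Pacs1 (1.76 and 2.85) and Glipr1 (1.73 and 1.71). Of the Ankrd13c UMIs in the Cxcr2 Il1r2 neutrophils, 1 cell held 20.3% in Gel50_CS50 and 1 cell 14.3% in Gel100. Oprm1 (1.82 and 2.36) and Ipcef1 (2.13 and 1.95) lie over each other on opposite strands of chromosome 10, so reads of the pair may not be told apart. Slc2a3, a glucose transporter, had log2 ratios of 1.69 and 2.07.

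Several cytokine and chemokine genes were lower in the Cxcr2 Il1r2 neutrophils. Of all measured genes, 21.0% were past 1.5-fold higher and 12.3% lower in Gel50_CS50, and 21.4% and 13.6% in Gel100. Of 17 measured cytokines and chemokines, 2 were past 1.5-fold higher and 7 lower in Gel50_CS50, and 1 and 7 in Gel100. The chemokine Ccl6 was higher in both libraries (log2 ratios 0.91 and 1.22), and Osm was higher in Gel50_CS50. Ccl4, the neighbour and relative of Ccl3, stood at 1575 CPM in the Cxcr2 Il1r2 neutrophils and 8888 CPM in the others of Gel50_CS50, and at 1750 CPM and 13668 CPM in Gel100. Cxcl2 had a log2 ratio of -0.80 in both libraries, Tnf of -1.21 and -1.01, and Cxcl1 of -1.32 and -1.03. Fth1, the ferritin heavy chain, had log2 ratios of -1.12 and -1.07, and Ftl1, the light chain, -0.48 and -1.16. Saa3, an acute-phase protein, had log2 ratios of -2.74 and -1.72, Abcc1, a drug and leukotriene exporter, -2.04 and -1.48, and Zc3h12c, a regulator of RNA decay, -2.07 and -1.62. F10, coagulation factor X, had log2 ratios of -1.44 and -2.24. In the Cxcr2 Il1r2 neutrophils of Gel100, 1 cell held 30.9% of the Zc3h12c UMIs, and 1 cell held 40.0% of those of F10. The lowest named genes further held Schip1 (-1.93 and -1.83), AA467197 (-1.90 and -1.47), Myo18a (-1.87 and -1.47), Esd (-1.57 and -1.39), Adgb (-1.66 and -1.29), Agpat4 (-1.28 and -1.46) and Rhof (-1.36 and -1.36). Il1b differed little (-0.08 and 0.17).

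Some genes set the kinds of neutrophil apart by a larger ratio in Gel50_CS50, a difference that was not tested. Lcn2 stood at 1170 CPM in the Cxcr2 Il1r2 neutrophils and 7677 CPM in the others of Gel50_CS50, and at 538 CPM and 873 CPM in Gel100. Lrg1 had log2 ratios of 1.80 (1.68 to 1.93) in Gel50_CS50 and 0.80 (0.45 to 1.17) in Gel100. Nfil3 had log2 ratios of 1.81 and 0.11. Ly6g had log2 ratios of 1.72 and -0.30, but its mean was under the 50 CPM minimum in the Gel50_CS50 comparison. It rested there on 136 UMIs in the Cxcr2 Il1r2 neutrophils. The intervals of Lrg1 did not overlap between the libraries. Of 22 measured mature neutrophil genes, 9 were past 1.5-fold higher and 2 lower in Gel50_CS50, and of 23 in Gel100, 8 were higher and 2 lower. Over all measured genes the shares were 21.0% higher and 12.3% lower in Gel50_CS50, and 21.4% and 13.6% in Gel100. G0s2 and Trem1 of this list lay within 1.5-fold in both libraries. Per cell, the list took a median of 2.47% of UMIs in the Cxcr2 Il1r2 neutrophils and 2.88% in the others of Gel50_CS50. In Gel100 the medians were 2.27% and 2.08%.

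**Figure D4:**
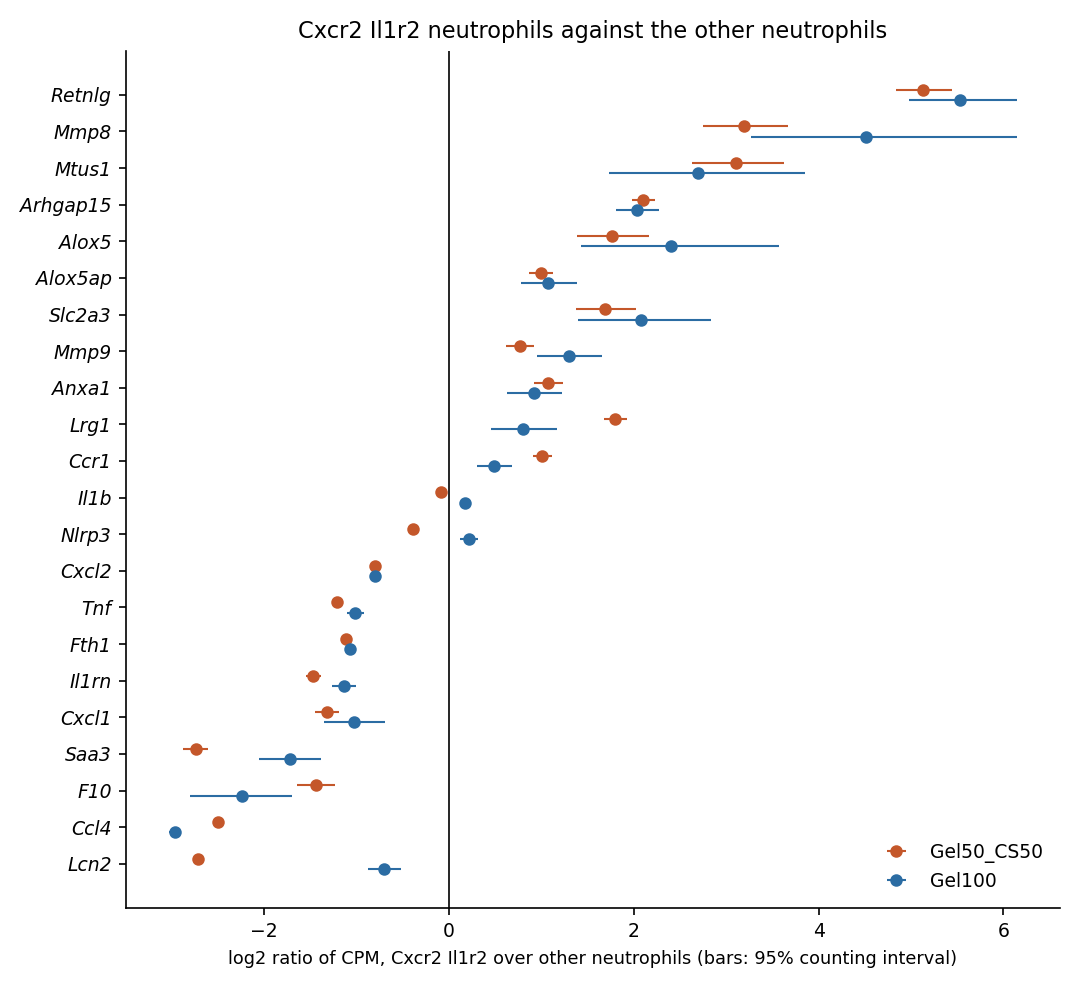
Log2 ratio of CPM, Cxcr2 Il1r2 over other neutrophils, for 22 genes in Gel50_CS50 and Gel100, with 95% counting intervals. Retnlg stands at 5.13 in Gel50_CS50 and 5.53 in Gel100, Ccl4 at -2.50 and -2.97, and Lcn2 at -2.71 and -0.70.

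The Cxcr2 Il1r2 neutrophils were not uniform, and Retnlg marked a minority of them. This split was chosen after its values were seen, so it is a description. No Retnlg UMI was seen in 75.4% of the cells of Gel50_CS50 and 70.1% of those of Gel100. At least 3 Retnlg UMIs were seen in 71 cells of Gel50_CS50 (13.1%, 10.3% to 16.2%) and 52 of Gel100 (18.5%, 14.1% to 23.5%), and at least 20 in 29 and 30 cells. Among the other neutrophils 7 cells of Gel50_CS50 and 2 of Gel100 had at least 3. The cells with 3 or more Retnlg UMIs had a median of 5286 UMIs in Gel50_CS50 and 4895.5 in Gel100, and those without Retnlg 4171.5 and 4058 UMIs. T cells had a Retnlg UMI in 1.83% of cells in Gel50_CS50 and in 0 of 357 in Gel100, which allows a share of up to 0.840%.

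The cells with at least 3 Retnlg UMIs were set against those without Retnlg. Past 1.5-fold in both libraries alike, 299 of 2285 measured genes (13.1%) were higher and 337 (14.7%) lower. Taken by library, 18.9% were higher and 18.3% lower in Gel50_CS50, and 24.8% and 26.1% in Gel100, 51.0% in all. Of 25 measured mature neutrophil genes, Retnlg itself included, 11 were past 1.5-fold higher and 3 lower in Gel50_CS50 (median log2 ratio 0.19), and 12 and 3 in Gel100 (median 0.51). Clec4e (-0.90 and -0.82) and Il13ra1 (-0.65 and -0.79) were lower in both libraries. Lrg1 was lower in Gel50_CS50 (-0.95), with a ratio of -0.14 in Gel100, and Hdc was lower in Gel100 (-0.59), with a ratio of -0.29 in Gel50_CS50. Ly6g had log2 ratios of 4.39 in Gel50_CS50 and 4.66 in Gel100. Cd177, a neutrophil surface protein, had log2 ratios of 3.70 and 4.95, and Mmp8 of 3.54 and 5.06. Padi4, which citrullinates histones in extracellular traps, had log2 ratios of 2.96 and 3.25. Others were Adpgk (3.89 and 6.08), Syne1 (3.43 and 3.02), Bmx (2.78 and 4.61), a Tec family kinase, Tkt (2.58 and 3.75), a transketolase, Nt5e (3.54 and 2.17), Rflnb (2.45 and 4.15) and Cpd (2.17 and 2.44). Cxcr2 differed little between these subsets (-0.15 and 0.02), as did Il1r2 (0.29 and 0.13), though both were part of the choice.

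Interferon-stimulated genes and most measured cytokine and chemokine genes were lower in the cells with Retnlg. All 31 measured interferon-stimulated genes were past 1.5-fold lower in Gel50_CS50 (median log2 ratio -1.19), and 30 of 31 in Gel100 (median -1.65), beside 18.3% and 26.1% of all measured genes. Ifit3 had log2 ratios of -1.98 and -2.30, Bst2 of -2.02 and -2.13, and Gbp5 of -1.86 and -1.75. Of the measured cytokines and chemokines, 12 of 15 in Gel50_CS50 and 12 of 17 in Gel100 were past 1.5-fold lower, among them Il23a (-2.08 and -3.17), Tnf (-1.70 and -2.15) and Il1a (-1.54 and -2.65). Ccl6 was higher (2.04 and 3.11). Nfkbia, which holds NF-kB in the cytoplasm, had log2 ratios of -1.19 and -1.50, and 11 of 14 measured NF-kB brakes were past 1.5-fold lower in Gel50_CS50 and 13 in Gel100. The named lower genes held Plac8 (-2.47 and -1.82), Clec4n (-2.00 and -1.92), which encodes the fungal receptor Dectin-2, Creb5 (-2.20 and -2.17), Dock4 (-1.96 and -1.96), H2-Eb1 (-2.96 and -3.30), H2-Aa (-2.11 and -4.07), Cd74 (-1.97 and -2.54) and Tcf4 (-1.88 and -4.00). H2-Eb1, H2-Aa, Cd74 and Tcf4 rested on few cells, with 39.4% of the Tcf4 UMIs in 1 cell of Gel50_CS50 and 50.9% in 1 cell of Gel100.

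Inside the subsets, the medians of the interferon list lay further apart between the libraries in cells without Retnlg. In cells without Retnlg, it took a median of 2.41% of UMIs in Gel50_CS50 and 5.34% in Gel100. In cells with at least 3 Retnlg UMIs, it took 0.594% in Gel50_CS50 and 0.734% in Gel100, with 90th percentiles of 4.35% and 7.07%. Most cells with Retnlg thus lay at the low end of the interferon range in either library, and a few lay as high as those without it.

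**Figure D5:**
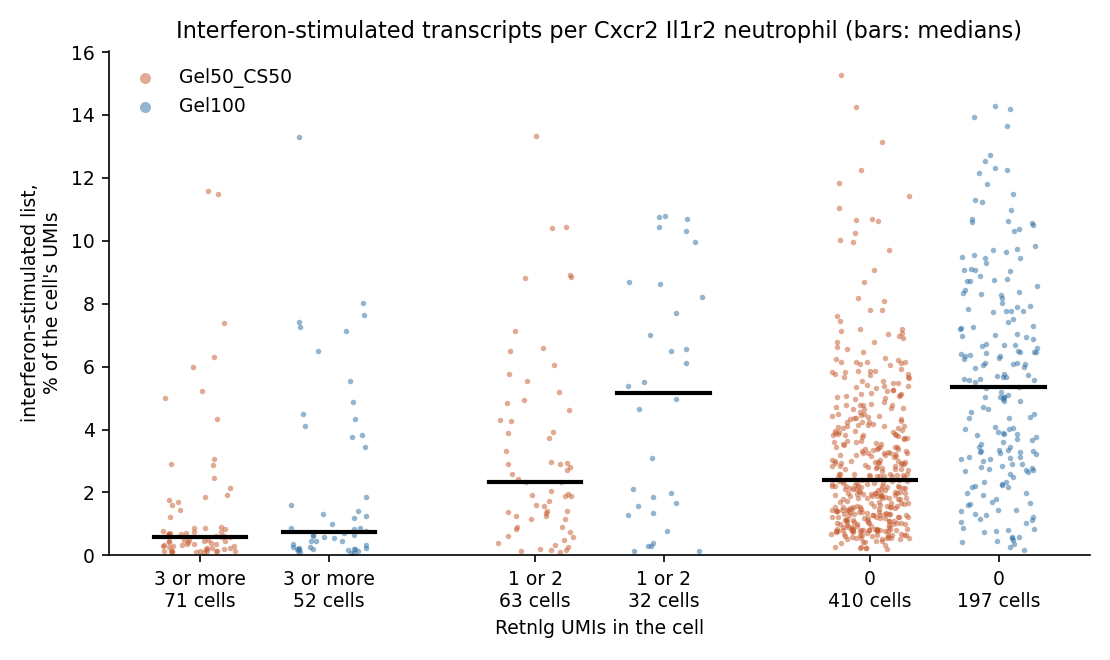
Each point is a Cxcr2 Il1r2 neutrophil, grouped by its Retnlg UMIs and library (Gel50_CS50 left of Gel100), with the interferon-stimulated list as a percentage of its UMIs and bars at the medians. Cells with 3 or more Retnlg UMIs have medians of 0.594% in Gel50_CS50 and 0.734% in Gel100, against 2.41% and 5.34% in cells with 0.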

How the data were processed

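The deposited matrices hold whole-number UMI counts per gene and barcode, with no normalization, written, per the file headers, by Cell Ranger 6.0.2, with mm10 named in the submitters' processing notes. They held 7515 barcodes and 150311308 UMIs for Gel50_CS50, and 7845 barcodes and 108847835 UMIs for Gel100. Coordinates are from GENCODE vM21, where 32235 of 32285 gene identifiers were found. How reads shared by similar or overlapping genes were counted, and whether strand was used, is not stated in the labels or headers.

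The rule, the gene lists and the alternatives were chosen with earlier results of these data known, so no list is independent evidence. UMIs were summed over the cells of a set and library and scaled to CPM. Log2 ratios carry exact conditional binomial 95% intervals, shares have exact Clopper-Pearson intervals, and the Newcombe method served for their differences. These cover counting error only and treat UMIs as independent, although a few cells can hold many. Genes were measured at a mean of at least 50 CPM. The genes of the rule were left out of list counts. The rule for named genes took the 12 top and 12 bottom ratios with an interval wholly beyond 1.5-fold. Against the other neutrophils and in the Retnlg split this had to hold in both libraries, and genes were ranked by the ratio nearer to 0. Some genes that met it are not reported here. Genes named outside it, from the lists, were chosen after their values were seen. T cells, used for free RNA, had a Cd3e UMI, no Csf1r or Csf3r UMI, S100a8 and S100a9 under 0.5% and Col1a2 under 0.1%. The planned comparison with neutrophils rich in granule genes was not made, since the libraries held 17 and 25 of them, under the minimum of 50.

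Doublets were kept in the main values. Scrublet, in scanpy 1.11.5 with an expected rate of 0.06, called 2.61% of barcodes in Gel50_CS50 and 2.33% in Gel100, of which 8 and 0 were Cxcr2 Il1r2 neutrophils. The ratio step was tested on simulated counts. TMM factors came from edgeR 4.0.16. Scripts ran in Python 3.11.15 with pandas 2.3.3, scipy 1.17.1, numpy 2.4.6 and matplotlib 3.10.9.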

Additional observations from a re-analysis of the deposited data

How the results depend on the processing

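No paired analysis was possible because each group has 1 library, and leaving out a replicate was not possible for the same reason. The difference in the share of Cxcr2 Il1r2 neutrophils, Gel50_CS50 minus Gel100, kept its direction under every alternative run, from -19.6 to -16.5 points of gated neutrophils and from 2.92 to 3.73 points of all cells. The shares themselves moved with 3 alternatives. Of gated neutrophils they were 56.6% in Gel50_CS50 and 75.9% in Gel100 after thinning to 1000 UMIs, 45.1% and 61.6% with a receptor sum of at least 2 times Ccl3, and 48.5% in Gel50_CS50 among cells with fewer than 3 Retnlg UMIs. Of all cells they were 6.02% in Gel50_CS50 and 3.10% in Gel100 after thinning, 6.51% and 3.54% with the stricter receptor sum, and 6.59% and 3.36% with fewer than 3 Retnlg UMIs.

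Counts of genes past 1.5-fold moved with the minimum level and, between the libraries, with the cells used. Between the libraries they were 255 higher and 355 lower with the minimum set at 20 CPM, 50 and 109 at 100 CPM, and 2068 and 2787 with at least 1 UMI in each set. With about as many genes tested, thinning gave 177 higher and 250 lower, and the cells with at least 3 Retnlg UMIs gave 342 higher and 301 lower. Against the other neutrophils they were 471 higher and 198 lower at 20 CPM, 143 and 81 at 100 CPM, and 1094 and 692 with at least 1 UMI. The count of interferon-stimulated genes past 1.5-fold lower ranged from 16 to 27, and the median of the list from -0.92 to -0.62. The number measured varied as well, with 24 of 31 lower in the main values and 27 of 35 with at least 1 UMI in each set. Of 298 values of 24 named genes under alternatives, 261 stayed inside the counting interval and 36 left it with the same sign. The 261 include the alternatives that changed only the minimum level. Those leave each ratio as it is, so their values could not leave the interval. Clic4 turned to 0.90 in the cells with at least 3 Retnlg UMIs; the cause was not tested. Cxcl3 ranged from 0.04 to 1.42, Ly6c2 from -1.81 to -0.30 and Lrg1 from 0.87 to 1.77. The alternatives by Retnlg, by an upper limit of 10000 UMIs and without the highest cell of each gene were chosen after seeing the data. Depth limits single cells: at medians of 4310 and 4060 UMIs, a gene without a UMI is not shown to be absent.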
